A study of Mus musculus with 24 samples.

Results

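Among 24 tumours excised from mouse brain cortex, the transcript of the fibrillar collagen gene Col3a1 varied widely. The 8 tumours with the highest collagen score were compared with the 8 with the lowest. Each tumour was given a collagen score, the mean log2 expression value of Col1a1, Col1a2 and Col3a1, each measured by its brightest probe set. The 8 highest tumours are called collagen-rich and the 8 lowest collagen-poor; the other 8 lie between them. The score ran from 3.68 to 6.06. The last collagen-rich tumour, ZNF668 replicate 7, stood at 4.89 and the next below it, RAB3A replicate 3, at 4.63. The first collagen-poor tumour, ZNF668 replicate 1, stood at 4.23 and the next above it, BC74C replicate 4, at 4.25, so that cut falls where scores are nearly equal. Replicate numbers follow the order of deposit within a class gene.

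Collagens I and III form the fibrils of connective tissue. They are secreted by fibroblasts and related perivascular cells as procollagen chains, trimmed, and crosslinked outside the cell. In brain such cells are normally confined to the meninges, the choroid plexus stroma and the walls of vessels, and the rest of the tissue has little fibrillar collagen. Col1a1 and Col1a2 encode the chains of collagen I, and Col3a1 encodes the chain of collagen III.

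The score is in practice a measure of Col3a1. Col3a1 ran from 7.29 to 9.78 in collagen-rich, 6.10 to 6.91 in the tumours between and 4.27 to 5.87 in collagen-poor tumours. Ranking by Col3a1 alone gave the same 8 and the same 8 tumours. These values are those of its brighter probe set. The other named probe set of Col3a1 was dim, from 2.74 to 4.71 with a mean of 3.32, and its Pearson correlation with the score was 0.82. Col1a1 was dim, from 4.11 to 5.32 in collagen-rich and 3.72 to 4.16 in collagen-poor tumours, and its ranges overlapped. The single named probe set of Col1a2 stayed between 2.75 and 3.39 in all 24 tumours, below the value of 3.76 under which genes were left out as too low, and it is not read here as a measure of collagen I. The label collagen-rich therefore stands for the brighter probe set of Col3a1, with some support from Col1a1. The groups were chosen by the measured values of these 3 genes, which are given as a description and were not tested.

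Per the labels, each tumour grew from cells that expressed 1 of 3 class genes, RAB3A, BC74C or ZNF668, and each also has a type label. The collagen-rich group holds 2 RAB3A, 3 BC74C and 3 ZNF668 tumours and the collagen-poor group 1, 4 and 3. Of the collagen-rich tumours 4 are labelled ependymoma, 2 HGG (not spelled out in the labels), 1 TUMOR and 1 UNKNOWN, the same numbers as among the collagen-poor tumours. Titles begin with mmr in 4 collagen-rich and 1 collagen-poor tumour and with elw in the rest, so the title prefix moves with the groups. The labels give no strain, age or host, nor whether tumours came from separate animals; p-values measure only the spread between these samples. Normal cortex was not analysed here.

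Some tumours stood apart. RAB3A replicate 5, which had the highest score, had a B cell list mean of 9.15 where the other collagen-rich tumours reached at most 4.21, the lowest radial glia and neural stem mean of that group (7.01) and a Y-linked mean of 3.01. Together with BC74C replicate 2 it also had the highest choroid plexus list means (7.80 and 7.53) and MHC class II list means (9.94 and 9.92) of all tumours. RAB3A replicate 6 had cell cycle transcripts far below those of the other 7 collagen-rich tumours. Array medians lay between 4.98 and 5.19 in all 24 tumours.

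**Figure D1:**
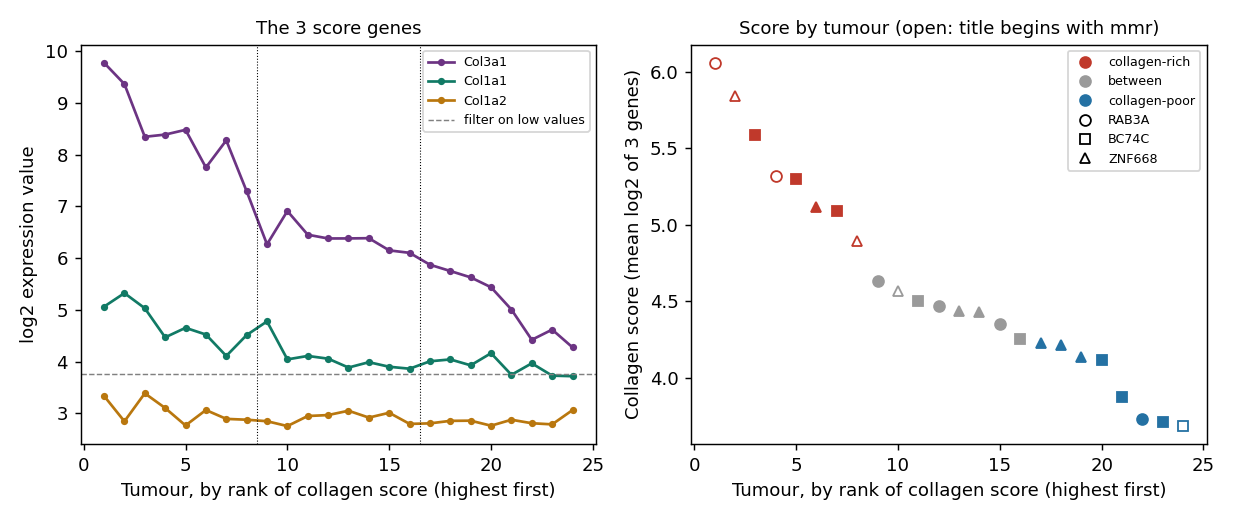
Left, log2 expression values of Col3a1, Col1a1 and Col1a2 in each of 24 tumours, ordered by collagen score, with dotted lines at the bounds of the groups of 8 and a dashed line at 3.76, below which genes were left out. Right, the collagen score of each tumour, coloured by group, with 1 symbol per class gene. Col3a1 falls from 9.78 to 4.27, while Col1a2 stays near its lowest values throughout, and 4 of the 8 collagen-rich tumours are open symbols.

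In collagen-rich tumours all 21 cell cycle genes tested were called higher, against 7.76% of all genes, and 12 of 17 mature neuron genes lower, against 6.54%. Of the matrix glycoprotein, hypoxia, recruited macrophage and sprouting endothelial lists 5 of 16, 5 of 14, 3 of 13 and 2 of 9 were called higher. With the title prefix as a further covariate these 6 counts, in the same order, were 19, 1, 2, 2, 1 and 1. That fit called 2.63% of all genes higher and 0.794% lower. Vegfa is a member of both the hypoxia and the sprouting endothelial list. The macrophage count includes Arg1 and the matrix count Aspn. Their collagen-poor means, 3.49 and 3.62, lay below 3.76, the value under which genes were left out. The call of Arg1 is given as a description only. With the class gene as a covariate, limma called 1025 of 13216 genes higher in collagen-rich tumours (7.76%) and 864 lower (6.54%) at an adjusted p under 0.05. Every count of calls in a list below is to be read beside these shares. A count from another fit is to be read beside the share called in that fit, given in the next paragraphs. By limma 4162 of 13216 genes had an unadjusted p under 0.05, and unadjusted counts in a list are to be read beside that. The median difference over all genes was 0.035, and 54.1% of all differences were positive. Differences are given throughout as collagen-rich minus collagen-poor on the log2 scale. The groups were cut from the same arrays on which the other genes were read, so a call says that a gene went with Col3a1 across these tumours, in which nothing was assigned at random.

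With the title prefix as a further covariate 347 genes were called higher (2.63%) and 105 lower (0.794%), and 344 and 102 of them were among the calls above. Among the 11 tumours with elw titles, 4 collagen-rich and 7 collagen-poor, 674 were called higher (5.1%) and 809 lower (6.12%). Within mmr only BC74C replicate 9 is collagen-poor, and what the prefixes stand for is not in the labels. Without the class gene as a covariate the counts were 447 and 143, for the 12 highest against the 12 lowest tumours 39 and 34, and among tumours labelled ependymoma, 4 against 4, 0 and 0 by limma with 1018 at an unadjusted p under 0.05. The mature neuron list was itself lower in the collagen-rich group. With its mean as a further covariate limma called 0 genes higher (0%) and 0 lower (0%), with 1411 genes at an unadjusted p under 0.05 against 4162 without that covariate.

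Single tumours moved the counts. The number called higher fell to 551, 557, 638 and 653 without BC74C replicates 1, 6, 7 and 8, and to 539 and 583 without ZNF668 replicates 5 and 7. The number called lower was 322, 266, 454 and 445 without those 4 BC74C tumours and 1392 without BC74C replicate 9. It was 353, 346 and 560 without ZNF668 replicates 5, 7 and 8. Without RAB3A replicate 5 the counts were 1288 and 1085, and without both that tumour and BC74C replicate 2 they were 1312 and 1112.

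Cell cycle genes rose as a group: all 21 tested members of the proliferation list were called higher, against 7.76% of all genes, with a median difference of 2.30. The list mean ran from 6.52 to 9.41 (median 8.91) in collagen-rich and from 5.12 to 8.14 (median 6.51) in collagen-poor tumours. In 7 of 8 collagen-rich tumours it lay above every collagen-poor tumour; RAB3A replicate 6, at 6.52, was the exception. The same 21 members were called without RAB3A replicate 5 and BC74C replicate 2 (median 2.28). With the title prefix as a covariate 19 were called, beside 2.63% of all genes, and within elw 16 (median 2.12), beside 5.1%. The median was 1.28 among tumours labelled ependymoma and 1.46 for 12 against 12 tumours. With the neuron list mean as a covariate none passed, while 21 of 21 differences stayed positive with a median of 1.84.

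Cdk1 encodes the kinase that drives entry into mitosis. It ran from 7.70 to 10.60 (median 10.11) in collagen-rich and from 5.64 to 9.45 (median 7.64) in collagen-poor tumours. It exceeded every collagen-poor tumour in 6 of 8 collagen-rich tumours, a difference of 2.49 (SE 0.47, limma adjusted p = 0.00932). Bub1, a kinase of the spindle checkpoint, ran from 5.79 to 9.05 (median 8.36) in collagen-rich and from 3.90 to 7.61 (median 5.03) in collagen-poor tumours. RAB3A replicate 6 and BC74C replicate 2 lay inside the collagen-poor range, and the difference was 2.81 (SE 0.57, limma adjusted p = 0.011). Mki67, the common histological marker of cycling cells, differed by 2.77 and the DNA topoisomerase Top2a by 2.70. Ccna2 and Ccnb2, cyclins of S phase and mitosis, differed by 2.47 and 2.19, and the mitotic kinases Aurka, Aurkb and Plk1 by 2.48, 2.43 and 1.98. Genes of DNA synthesis were called as well: Mcm6 and Mcm2, of the replicative helicase, differed by 1.84 and 2.06, Tyms, which makes thymidylate, by 1.52, and Pcna, the polymerase clamp, by 0.71. Ncapg, a condensin subunit, Cep55, which acts in abscission, and Pclaf, a partner of Pcna, were among the 10 genes with the largest rises, at 2.71, 2.55 and 2.50. The dimmest of 3 probe sets of Top2a gave -0.088. None of these calls was lost when any 1 of the 16 tumours was left out.

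Promoters of cell cycle genes are known for CCAAT boxes and for the cell cycle homology element, TTTGAA. Promoters of 3 members are shown because these genes moved together, from RefSeq on build GRCm38.p6: the 250 bases before the start of transcription, 5′ to 3′ on the gene's strand, with CCAAT boxes (ATTGG on the other strand) and the homology element (TTCAAA on the other strand) in capitals. They lie at chr10:69352913-69353162 (minus strand) for Cdk1, chr9:70421555-70421804 (minus strand) for Ccnb2 and chr7:122159185-122159434 (plus strand) for Plk1.
Cdk1: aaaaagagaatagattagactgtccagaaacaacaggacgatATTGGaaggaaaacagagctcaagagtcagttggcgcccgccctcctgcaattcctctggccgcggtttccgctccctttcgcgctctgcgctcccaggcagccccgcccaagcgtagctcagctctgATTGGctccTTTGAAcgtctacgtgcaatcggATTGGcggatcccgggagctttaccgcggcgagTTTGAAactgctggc
Ccnb2: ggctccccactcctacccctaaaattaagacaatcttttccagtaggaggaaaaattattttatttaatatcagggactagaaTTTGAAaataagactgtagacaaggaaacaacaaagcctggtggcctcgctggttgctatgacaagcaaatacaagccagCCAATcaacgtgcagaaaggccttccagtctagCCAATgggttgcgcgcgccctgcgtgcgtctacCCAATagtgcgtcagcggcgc
Plk1: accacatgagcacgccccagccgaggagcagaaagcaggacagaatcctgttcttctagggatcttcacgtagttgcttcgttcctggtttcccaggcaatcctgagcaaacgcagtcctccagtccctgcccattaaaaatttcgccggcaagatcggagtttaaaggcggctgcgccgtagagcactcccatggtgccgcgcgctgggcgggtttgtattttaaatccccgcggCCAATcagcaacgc
These windows hold 3 CCAAT and 2 TTTGAA matches in Cdk1, 3 and 1 in Ccnb2 and 1 and 0 in Plk1, both strands counted; the 2 motifs do not overlap each other in them, and 1 more TTTGAA lies in each of Ccnb2 and Plk1 within 50 bases after the start. Over windows of 300 bases, from 250 before to 50 after the start, 16 of the 18 list members matched to a promoter held CCAAT (88.9%), against 38.3% of 10628 promoters of genes tested. For TTTGAA it was 10 of 18 (55.6%) against 11.7%, and for both motifs 10 (55.6%) against 4.74%. Over all 27025 promoters of the table the shares were 37.9%, 18.1% and 7.12%. A match is a description of the letters and not of a bound site.

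Of the 39 other collagen genes measured, 32 were bright enough to be tested; 5 were called higher and 0 lower, and their median difference was 0.42. The count called higher was 5 of 32, to be read beside 7.76%. Within elw 5 were called and with the title prefix as a covariate 2, and the median was 0.25 with the neuron list mean as a covariate.

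Col5a2, a fibrillar chain that assembles with collagens I and III, ran from 6.39 to 8.66 (median 7.91) in collagen-rich and from 4.28 to 6.95 (median 5.75) in collagen-poor tumours. Only ZNF668 replicate 2, at 6.39, fell within the collagen-poor range, and the difference was 1.96 (SE 0.36, limma adjusted p = 0.00911). Col8a1, a short-chain collagen of vessel walls, ran from 4.99 to 9.34 (median 6.86) in collagen-rich and from 4.10 to 4.74 (median 4.46) in collagen-poor tumours. Here the 2 groups did not overlap, and the difference was 2.60 (SE 0.50, limma adjusted p = 0.00988). Its collagen-rich values were themselves uneven, with BC74C replicates 1 and 6 at 9.34 and 9.22 and the other 6 tumours at most 7.02. Col18a1, a collagen of basement membranes, differed by 1.40 (adjusted p = 0.0203), the basement membrane chain Col4a1 by 0.999 (adjusted p = 0.0368) and the minor fibrillar chain Col11a1 by 1.20 (adjusted p = 0.0395). Those of Col4a1 and Col11a1 failed to pass in 10 and 11 of the 16 fits that left out 1 tumour. Col4a2 differed by 0.83 (adjusted p = 0.0684) and Col4a5 by 1.39 (adjusted p = 0.0654). Of the collagen VI chains of connective tissue Col6a1, Col6a2 and Col6a3 differed by 0.67, 0.99 and 0.67, with adjusted p between 0.127 and 0.399. Col25a1 and Col19a1, collagens made by neurons, had the lowest values of the list, -1.48 (adjusted p = 0.0867) and -0.90 (adjusted p = 0.452). With the neuron list mean as a covariate Col5a2 and Col8a1 differed by 2.29 and 2.95, and neither passed.

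Of the fibroblast and leptomeningeal genes 3 of 17 tested members were called higher, to be read beside 7.76% of all genes, and 0 lower. All 3 calls were lost within elw (adjusted p 0.057 to 0.0883 by limma) and with the title prefix as a covariate (0.0555 to 0.0759). The list's median was 0.13, -0.016 without RAB3A replicate 5, -0.083 without RAB3A replicate 2 and 0.63 with the neuron list mean as a covariate. Lum, a proteoglycan that coats collagen fibrils, ran from 4.66 to 8.38 (median 7.19) in collagen-rich and from 4.28 to 5.43 (median 4.88) in collagen-poor tumours. It was high in 6 collagen-rich tumours, while ZNF668 replicates 2 and 7, at 5.22 and 4.66, lay within the collagen-poor range. The difference was 2.10 (SE 0.51, limma adjusted p = 0.0188). Dcn, a related fibril-coating proteoglycan, differed by 1.78 (adjusted p = 0.0425) and Fbln1, a fibulin, by 0.78 (adjusted p = 0.0234); the first failed to pass in 10 of 16 fits without 1 tumour and the second in 3, and the dimmest of 3 probe sets of Fbln1 gave -0.21. The leptomeningeal transporters Slc22a6, Slc13a4 and Slc6a13 differed by -0.075, 0.17 and -0.092, and Slc47a1 and Cdh11 by -0.50 and -0.28. No mesenchymal transcription factor was called (0 of 8, 0 at an unadjusted p under 0.05 by limma). In bulk tissue fewer cells of a type and less RNA per cell cannot be told apart.

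Matrix glycoproteins and proteoglycans included 5 of 16 called higher and 0 called lower, with a median of 0.71 (0.96 without RAB3A replicate 5, whose mean of 6.68 was the lowest of its group). Within elw 3 were called and with the title prefix as a covariate 2, and with the neuron list mean the median was 0.34 with 12 positive and 4 negative. Fn1, fibronectin, ran from 9.86 to 10.93 (median 10.49) in collagen-rich and from 8.38 to 10.61 (median 9.47) in collagen-poor tumours. ZNF668 replicate 1 alone among collagen-poor tumours reached the collagen-rich range, and 3 collagen-rich tumours exceeded it; the difference was 1.13 (SE 0.23, limma adjusted p = 0.011). Tgfbi, a matrix protein induced by TGF-beta, differed by 1.42 (adjusted p = 0.0203), Postn, periostin, by 1.58 (adjusted p = 0.0334), the elastic fibre protein Emilin1 by 1.40 (adjusted p = 0.0462) and the small proteoglycan Aspn by 0.58 (adjusted p = 0.0459). The collagen-poor mean of Aspn, 3.62, lay below the value under which genes were left out, so its difference is measured from the low end of the scale. The calls of Postn, Emilin1 and Aspn were lost in 9, 13 and 11 of 16 fits, and that of Tgfbi in 1. Tenascin C (Tnc) differed by 1.98 (adjusted p = 0.0784). Sparc, a collagen-binding protein, and Fmod, fibromodulin, differed by -0.19 and -0.37.

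Of 19 enzymes and chaperones that process collagen 1 was called higher, near the 7.76% of all genes, and 0 lower. The median was 0.47, and -0.043 with the neuron list mean as a covariate (8 positive, 11 negative). The called member was Colgalt1, a collagen galactosyltransferase, at 0.59 (adjusted p = 0.0425), lost in 9 of 16 fits, within elw and with the title prefix as a covariate. Serpinh1, the collagen chaperone, differed by 0.89 (adjusted p = 0.164), and Lox, which crosslinks fibrils, by -0.23. Among proteases and their inhibitors 2 of 16 were called higher, to be read beside 7.76% of all genes, and 0 lower. Their median was 0.55, and -0.019 with the neuron list mean as a covariate. Timp1, an inhibitor of matrix metalloproteinases, ran from 8.56 to 9.59 (median 9.21) in collagen-rich and from 5.69 to 9.33 (median 7.47) in collagen-poor tumours, a difference of 1.70 (SE 0.36, limma adjusted p = 0.0122). The collagen-rich values lay close together, 2 of them above every collagen-poor tumour and the other 6 inside the wide collagen-poor range. Adamts4, a proteoglycan-cleaving protease, differed by 0.91 (adjusted p = 0.0356), lost in 10 of 16 fits, and the metalloproteinase inhibitor Timp2 by -0.65 (adjusted p = 0.0812).

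Nid1 had the smallest p of all genes tested. It encodes nidogen, which links laminin to collagen IV in basement membranes, and ran from 7.31 to 9.04 (median 8.28) in collagen-rich and from 6.10 to 7.39 (median 6.59) in collagen-poor tumours. All collagen-rich tumours except BC74C replicate 2, at 7.31, lay above every collagen-poor tumour, and the difference was 1.71 (SE 0.23, limma adjusted p = 0.00757). It was 1.70 within elw, 1.59 with the title prefix as a covariate and 1.27 with the neuron list mean. It was the only called member of the 9 basement membrane genes tested, whose median was 0.41, and 0.0037 with the neuron list mean as a covariate; Lamb1, a laminin chain, differed by 0.97 (adjusted p = 0.0664) and Lama2 by -0.77. Of 9 collagen receptors 2 were called higher, to be read beside 7.76% of all genes, and 0 lower, with a median of 0.25 (0.06 with that covariate). Itgb1, the shared beta chain of collagen-binding integrins, ran from 9.55 to 10.82 (median 10.28) in collagen-rich and from 8.66 to 9.71 (median 9.32) in collagen-poor tumours. RAB3A replicate 5, at 9.55, was the 1 collagen-rich tumour inside the collagen-poor range, and the difference was 1.13 (SE 0.17, limma adjusted p = 0.00761). Its partner chain Itga1 differed by 1.05 (adjusted p = 0.022). Of 15 TGF-beta and PDGF genes 1 was called higher, near the 7.76% of all genes, and 0 lower. The called member was Tgfb2, a TGF-beta ligand, at 0.96 (limma adjusted p = 0.0309), lost in 7 of 16 fits. Tgfb1 differed by 0.41 (limma adjusted p = 0.174).

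**Figure D2:**
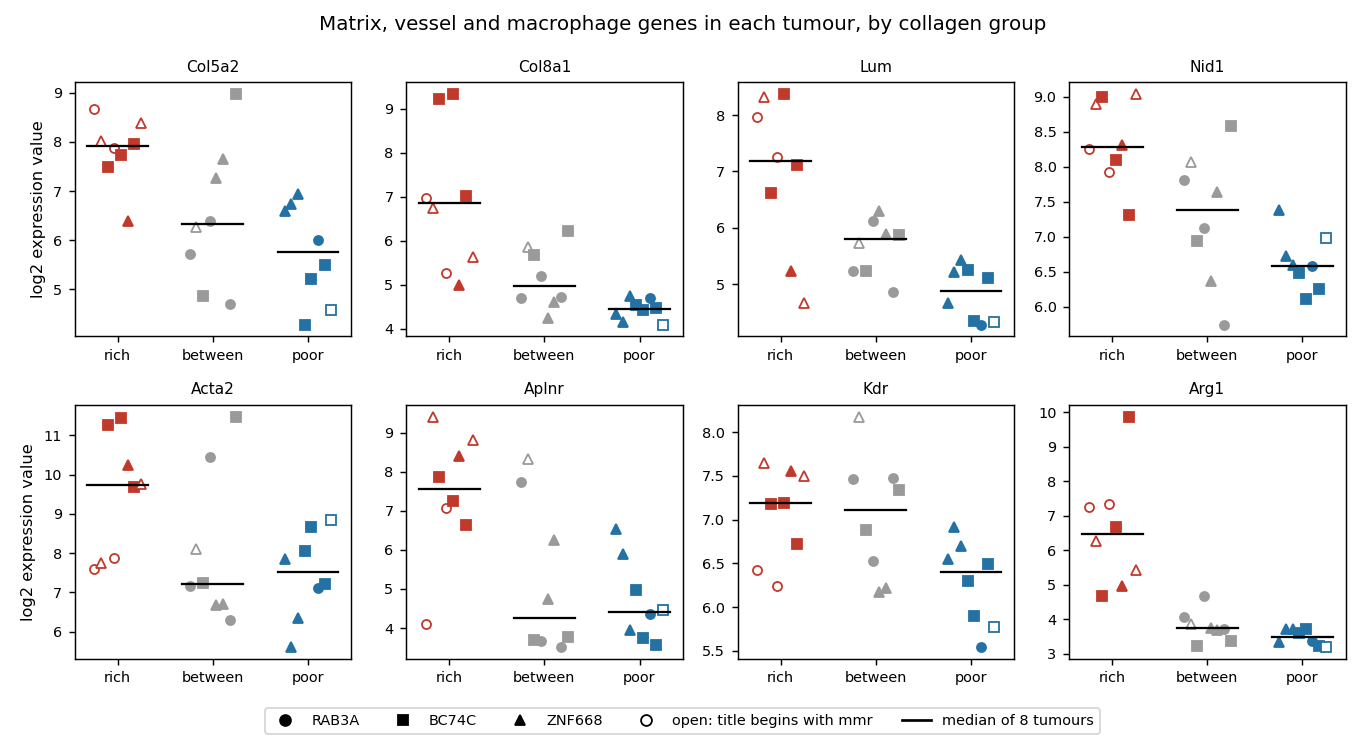
Log2 expression values of 8 genes in each of 24 tumours, by collagen group, with shapes for class genes, open symbols for titles that begin with mmr and bars at the median of 8 tumours. Arg1 and Col8a1 do not overlap between collagen-rich and collagen-poor tumours, Acta2 and Kdr do, and the tumours between sit near the collagen-poor values for Arg1 (median 3.75) and near the collagen-rich values for Kdr (median 7.11). All 8 collagen-poor values of Arg1 lie below 3.76.

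Vessel genes rose in part, with the strongest change in the apelin receptor by its brighter probe set. Aplnr, found on sprouting and venous endothelium, ran from 4.10 to 9.41 (median 7.56) in collagen-rich and from 3.57 to 6.55 (median 4.41) in collagen-poor tumours. Of the collagen-rich tumours 7 lay above all collagen-poor ones and RAB3A replicate 5, at 4.10, lay within their range; the difference was 2.88 (SE 0.48, limma adjusted p = 0.00873). Within elw it was 3.08 and with the neuron list mean as a covariate 1.67. A dimmer probe set of Aplnr, with a mean of 4.81, gave a difference of only 0.69. The other called member of the 9 sprouting genes was Vegfa, the main angiogenic growth factor, at 1.18 (limma adjusted p = 0.0396), lost in 10 of 16 fits. Vegfa is also a member of the hypoxia list and is counted in both. Esm1, a tip cell gene, differed by 2.17 (adjusted p = 0.0646). The list's median was 0.72, and 0.21 with the neuron list mean as a covariate. Without RAB3A replicate 5 and BC74C replicate 2, 5 of 9 were called higher, beside 1312 of all 13216 genes.

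Among general endothelial genes 4 of 18 were called higher and 0 lower (median 0.35). Kdr, the main VEGF receptor, ran from 6.24 to 7.65 (median 7.19) in collagen-rich and from 5.54 to 6.92 (median 6.40) in collagen-poor tumours. In 5 collagen-rich tumours it lay above the collagen-poor range, while RAB3A replicates 5 and 6 and BC74C replicate 2, at 6.42, 6.24 and 6.72, lay inside it, and the difference was 0.87 (SE 0.14, limma adjusted p = 0.00778). Vwf, von Willebrand factor, differed by 1.08 (adjusted p = 0.0206), the junction protein Pecam1 by 1.10 (adjusted p = 0.0216) and Cdh5, VE-cadherin, by 0.69 (adjusted p = 0.0233). Tek, the angiopoietin receptor, and Eng, endoglin, differed by -0.17 and 0.17. No barrier gene of brain endothelium was called higher: 0 of 9 were called higher and 1 lower, beside 7.76% and 6.54% of all genes. The median was -0.27, and 0.042 with the neuron list mean as a covariate. The gene called lower was Mfsd2a, a lipid transporter that keeps the barrier closed. It ran from 6.59 to 8.72 (median 7.48) in collagen-rich and from 7.54 to 10.46 (median 8.83) in collagen-poor tumours. The difference was -1.31 (SE 0.36, limma adjusted p = 0.0291), but it was -0.54 within elw (adjusted p = 0.395) and lost in 5 of 16 fits. Slco1a4, an organic anion transporter, differed by -1.15 (adjusted p = 0.0883) and Cldn5, the main tight junction claudin, by 0.77 (adjusted p = 0.162).

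Mural cell genes were called higher in 3 of 10 pericyte and 1 of 5 smooth muscle members, and lower in 0 and 0. Their medians were 0.37 and 0.52, and 0.44 and 0.26 with the neuron list mean as a covariate. Kcnj8, a potassium channel of pericytes, ran from 5.10 to 7.32 (median 6.66) in collagen-rich and from 4.47 to 5.57 (median 5.11) in collagen-poor tumours. In all but RAB3A replicate 5, at 5.10, it lay above the collagen-poor range, and the difference was 1.53 (SE 0.24, limma adjusted p = 0.00778).

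Mcam and Higd1b, also expressed by pericytes, differed by 1.31 (adjusted p = 0.0229) and 0.93 (adjusted p = 0.0319), whereas Pdgfrb and Rgs5, their most used markers, differed by 0.36 (adjusted p = 0.118) and 0.35 (adjusted p = 0.286). Acta2, smooth muscle actin of mural cells and myofibroblasts, ran from 7.61 to 11.43 (median 9.73) in collagen-rich and from 5.60 to 8.85 (median 7.53) in collagen-poor tumours. Among the collagen-rich tumours it was highest in BC74C replicates 1 and 6, at about the level of BC74C replicate 4 between the groups (11.48), and RAB3A replicates 5 and 6 and ZNF668 replicate 8 lay inside the collagen-poor range. The difference was 2.28 (SE 0.46, limma adjusted p = 0.011), and 3.09 within elw. The contractile genes Myl9 and Tpm1 differed by 0.77 (adjusted p = 0.0782) and 0.52 (adjusted p = 0.104).

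Of the immune lists only that of recruited monocytes and macrophages held calls, 3 of 13 members higher. Arg1, arginase of alternatively activated macrophages, had the largest fitted difference among the named genes called. It ran from 4.68 to 9.87 (median 6.46) in collagen-rich and from 3.19 to 3.73 (median 3.48) in collagen-poor tumours. The groups did not overlap: BC74C replicate 2 was highest at 9.87, and the lowest collagen-rich tumour still exceeded every collagen-poor one. All 8 collagen-poor values and 5 of the 8 values between lay below 3.76, beside a collagen-rich mean of 6.56. Arg1 thus passed that filter through the collagen-rich tumours, where it is high, and its call is given as a description. The size of its difference is measured from the low end of the scale. The difference was 3.03 (SE 0.56, limma adjusted p = 0.00911), and 2.83 within elw (adjusted p = 0.0613). Lgals3, galectin-3, ran from 8.24 to 11.97 (median 9.22) in collagen-rich and from 6.23 to 9.11 (median 7.56) in collagen-poor tumours. In 4 collagen-rich tumours it exceeded every collagen-poor one, and the difference was 2.08 (SE 0.50, limma adjusted p = 0.0186). S100a4 differed by 1.39 (adjusted p = 0.0397), lost in 11 of 16 fits. These 3 of 13 recruited monocyte and macrophage genes, Arg1 included, were called higher and 0 lower. All 13 differences were positive, beside 54.1% of all genes, with a median of 0.94 (1.43 with the neuron list mean as a covariate). RAB3A replicate 5 and BC74C replicate 2 had the highest list means of all tumours, 7.02 and 7.82. Without them the median was 0.66 and 2 were called higher, beside 1312 of all 13216 genes. Within elw 2 were called and with the title prefix as a covariate 1. Tumour cells and reactive glia can also express Lgals3 and S100a4. Mrc1, a mannose receptor of perivascular macrophages, differed by 0.95 (adjusted p = 0.234) and Ccr2, the receptor that recruits monocytes, by 0.47 (adjusted p = 0.362).

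Microglial genes did not pass the test: limma called 0 higher and 0 lower of 10. At an unadjusted p under 0.05 by limma there were 3, to be read beside 4162 of all 13216 genes. The list mean ran from 7.05 to 8.35 (median 7.99) in collagen-rich and from 6.62 to 9.19 (median 7.89) in collagen-poor tumours, and every collagen-rich tumour lay inside the collagen-poor range. P2ry12 and Tmem119, markers of resident microglia, differed by -0.83 (adjusted p = 0.104) and -0.76 (adjusted p = 0.149), and Fcrls by 1.10 (adjusted p = 0.106). MHC class II genes had a median of 1.14 with 0 of 6 called by limma (1 at an unadjusted p under 0.05); the median was 0.27 without RAB3A replicate 5 and BC74C replicate 2 and 2.50 with the neuron list mean as a covariate. H2-Ab1, a class II beta chain, differed by 1.49 (adjusted p = 0.143). Limma called 0 of 12 interferon and MHC class I genes (median 0.049, 0 unadjusted), 0 of 9 T and NK cell genes (median -0.065, 0 unadjusted), 0 of 7 neutrophil genes (median -0.55, 0 unadjusted) and 0 of 3 B cell genes (median 0.38, 0 unadjusted). With the neuron list mean as a covariate these 4 medians were -0.29, 0.12, -0.38 and 2.21. The B cell median was 0.063 without RAB3A replicate 5 and 0.021 without both that tumour and BC74C replicate 2. RAB3A replicate 5 also had the highest neuron list mean of the collagen-rich group, 9.09. The fit with that covariate was not repeated without it, so rises under the covariate may rest on this tumour.

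Of the tumour lists besides proliferation, those of mesenchymal glioma and of hypoxia held most calls. Mesenchymal glioma genes, which mark gliomas with injury-like and invasive programmes, were called higher in 5 of 13 and lower in 0, with 13 differences positive and a median of 0.92. Within elw 5 were called and with the title prefix as a covariate 1. The median was 0.42 with the neuron list mean as a covariate (10 positive, 3 negative) and 0.34 for 12 against 12 tumours. Emp1, a membrane protein, ran from 7.56 to 10.25 (median 8.61) in collagen-rich and from 6.06 to 8.19 (median 7.11) in collagen-poor tumours. In 5 collagen-rich tumours it exceeded every collagen-poor one, and the difference was 1.83 (SE 0.37, limma adjusted p = 0.011). Anxa2, an annexin of the cell membrane, differed by 1.55 (adjusted p = 0.0177), the calcium-binding S100a11 by 1.30 (adjusted p = 0.0406), galectin-1 (Lgals1) by 1.16 (adjusted p = 0.0373) and the intermediate filament vimentin (Vim) by 0.62 (adjusted p = 0.0439). The calls of S100a11, Lgals1 and Vim were lost in 8, 9 and 12 of 16 fits. Cd44, a hyaluronan receptor and the usual marker of this state, differed by 1.24 (adjusted p = 0.0646), and Stat3 and Cebpb, regulators of it, by 0.32 and 0.18.

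Genes induced by low oxygen were called higher in 5 of 14 and lower in 0 (median 0.63, and 0.34 with the neuron list mean as a covariate), and the list mean of 7 collagen-rich tumours lay above every collagen-poor one. Within elw 2 were called and with the title prefix as a covariate 2. Egln3, a prolyl hydroxylase induced by hypoxia, ran from 6.70 to 9.49 (median 7.90) in collagen-rich and from 5.76 to 6.996 (median 6.35) in collagen-poor tumours. Only RAB3A replicate 6 among the collagen-rich tumours, at 6.70, lay inside the collagen-poor range, and the difference was 1.999 (SE 0.32, limma adjusted p = 0.00821). Hk2, a hexokinase, differed by 1.35 (adjusted p = 0.016), Ldha, lactate dehydrogenase, by 0.61 (adjusted p = 0.0244) and the carbonic anhydrase Car9, which was dim, by 0.74 (adjusted p = 0.0383). The calls of Ldha and Car9 were lost in 3 and 9 of 16 fits. The remaining call was Vegfa, given above among the sprouting genes. The glucose transporters Slc2a1 and Slc2a3 differed by 0.016 and 0.017. With the neuron list mean as a covariate Egln3 and Hk2 differed by 1.16 and 0.57.

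Among radial glia and neural stem genes 1 of 15 was called higher, beside 7.76% of all genes, and 0 lower (median 0.12, and -0.51 with the neuron list mean as a covariate): Hes5, a Notch target, differed by 1.55 (adjusted p = 0.0457), lost in 13 of 16 fits. Sox2 and Nes, general stem cell markers, differed by 0.091 and 0.82. Limma called 0 of 13 ependymal and motile cilia genes (1 at an unadjusted p under 0.05, median 0.062), among them Foxj1, the master regulator of motile cilia, at 0.30. It called 0 of 9 oligodendrocyte progenitor genes (2 unadjusted, median 0.26, and -0.53 with that covariate), with the lineage regulator Olig2 at 0.064 and Pdgfra at 0.69 (adjusted p = 0.092). In the choroid plexus list 1 of 7 was called, the water channel Aqp1, at 1.87 (limma adjusted p = 0.0376). Of its values 6 of 8 collagen-poor and 5 of 8 between lay below 3.76, beside a collagen-rich mean of 5.40. Aqp1 thus passed that filter through the collagen-rich tumours, where it is high, and its call is given as a description. This difference too is measured from the low end of the scale. The choroid plexus list's median was 0.73, and 1.83 with the neuron list mean as a covariate. It was -0.19 without RAB3A replicate 5 and BC74C replicate 2, where 0 of 7 were called by limma. Aqp1 is also expressed by endothelium and tumour cells.

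Transcripts of mature neurons were lower in collagen-rich tumours: 12 of 17 tested members were called lower, against 6.54% of all genes, and 0 higher, with a median of -1.98. The list mean ran from 4.99 to 9.09 (median 6.93) in collagen-rich and from 7.05 to 9.48 (median 9.02) in collagen-poor tumours. In 5 collagen-rich tumours it lay below every collagen-poor one, whereas RAB3A replicate 5, at 9.09, was as high as the collagen-poor tumours and ZNF668 replicate 7 was lowest at 4.99. Within elw 14 of 17 were called lower (median -2.50), beside 6.12% of all genes. With the title prefix as a covariate it was 1 (median -1.82), beside 0.794%.

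Gad1, which makes GABA in inhibitory neurons, ran from 9.27 to 11.73 (median 9.83) in collagen-rich and from 10.87 to 12.24 (median 11.57) in collagen-poor tumours. It lay below the collagen-poor range in 6 collagen-rich tumours, a difference of -1.52 (SE 0.30, limma adjusted p = 0.0104). Syt1, the calcium sensor of transmitter release, ran from 7.32 to 11.95 (median 9.31) in collagen-rich and from 9.88 to 12.45 (median 11.90) in collagen-poor tumours. In 5 collagen-rich tumours it lay below every collagen-poor one, and the difference was -2.19 (SE 0.49, limma adjusted p = 0.0155). Camk2a, a kinase of excitatory synapses, differed by -2.62 (adjusted p = 0.0244), the GABA receptor subunit Gabrb2 by -2.75 (adjusted p = 0.0172), the synaptic vesicle protein Sv2b by -2.65 (adjusted p = 0.0216) and the scaffold Dlg2 by -2.71 (adjusted p = 0.0215). Of the other probe sets of these genes, a dim one of Camk2a and a dim one of Gabrb2 gave 0.043 and 0.0087. The neuropeptides Cck and Sst and the calcium sensors Hpcal4, Vsnl1, Caln1 and Hpca complete the 10 genes with the largest falls. They differed by -2.87, -2.86, -2.79, -2.65, -2.62 and -2.59, and their calls were lost in 5 to 11 of 16 fits. Under the neuron list mean as a covariate, Sst was 0.16 and Camk2a -0.085. Camk2a is itself part of that mean, so its small value there is partly built in.

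Rab3a, the mouse orthologue of a class gene and a protein of synaptic vesicles, followed the neuronal genes at -1.51 (adjusted p = 0.0291) and 0.15 under that covariate; Zfp668, the orthologue of another, differed by -0.04 (adjusted p = 0.877), and Bcl7c, which the labels do not tie to BC74C, by 0.50 (adjusted p = 0.0869). Myelin genes of mature oligodendrocytes had a median of -1.21 with 9 of 9 negative, but limma called 0 (5 at an unadjusted p under 0.05). Within elw the median was -2.06 with 2 called lower, and with the neuron list mean as a covariate it turned to 0.70 (6 positive, 3 negative). Their mean ran from 5.57 to 9.20 (median 7.94) in collagen-rich and from 7.68 to 10.07 (median 8.59) in collagen-poor tumours, and 3 collagen-rich tumours, BC74C replicates 1 and 6 and ZNF668 replicate 7, made up the low end. Mal and Mbp, of the myelin sheath, differed by -1.46 (adjusted p = 0.0646) and -1.75 (adjusted p = 0.15). Of 10 astrocyte genes 1 was called lower, to be read beside 6.54% of all genes, and 0 higher. The called member was the connexin Gjb6 at -1.48 (limma adjusted p = 0.0478), lost in 9 of 16 fits. Gfap, the filament of reactive astrocytes, differed by 0.73 (adjusted p = 0.103). Y-linked transcripts had a median of 0.57 (1.01 without RAB3A replicate 5, and -0.32 with the neuron list mean as a covariate) and Xist differed by -0.61 (adjusted p = 0.4); neither Xist nor any Y-linked transcript was called.

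**Figure D3:**
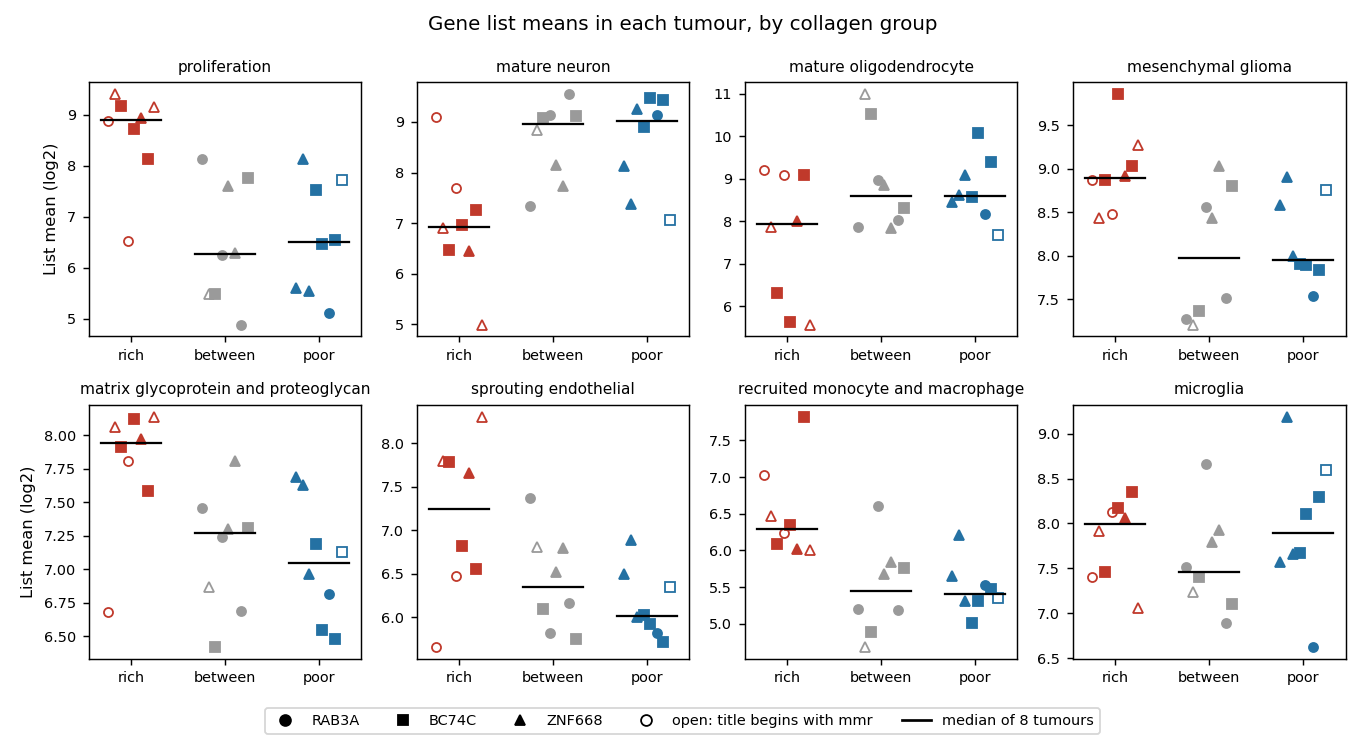
Means of 8 gene lists in each of 24 tumours, by collagen group, with shapes for class genes, open symbols for titles that begin with mmr and bars at the median of 8 tumours. Proliferation is high in 7 collagen-rich tumours, mature neuron is low in most of them, and the microglia ranges overlap; the tumours between have medians of 6.27 for proliferation and 8.96 for mature neuron, close to the collagen-poor medians of 6.51 and 9.02.

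**Figure D4:**
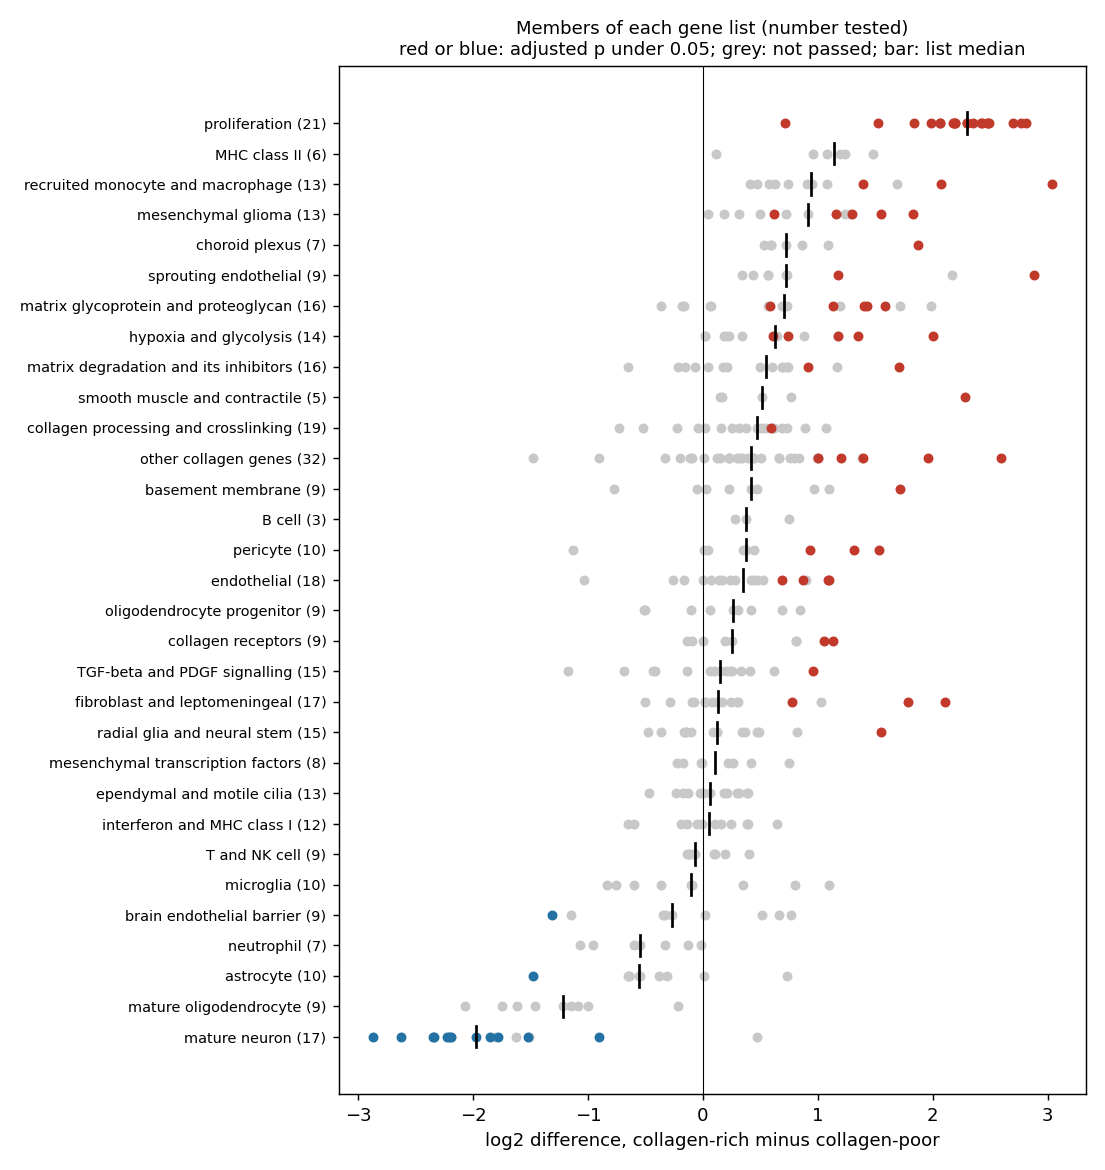
Each point is 1 gene, placed by its log2 difference between collagen-rich and collagen-poor tumours within its list; red and blue points passed limma at an adjusted p under 0.05, grey points did not, and black bars are list medians. All 21 proliferation genes are red, with a median of 2.30, and 12 of 17 neuron genes are blue, with a median of -1.98.

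The 8 tumours between the groups, which took no part in the test, resembled the collagen-poor tumours in several lists. Their Col3a1 median of 6.38 stood between 8.37 and 5.22. For proliferation, mature neuron, mesenchymal glioma and recruited macrophage genes their list medians were 6.27, 8.96, 7.97 and 5.44, beside collagen-poor medians of 6.51, 9.02, 7.95 and 5.41. Lum had a median of 5.80 in them, between the medians of the groups, and Aplnr 4.26. For 12 against 12 tumours, which takes these in, the medians of the differences in those 4 lists were 1.46, -1.33, 0.34 and 0.63. Other lists did not follow this. Endothelial genes had a median of 6.30 in the tumours between, 6.35 in the collagen-rich and 6.10 in the collagen-poor group, and pericyte genes 6.40, 6.65 and 6.11. Brain endothelial barrier genes, at 7.72, lay above both groups (7.38 and 7.38). Interferon and MHC class I genes, at 8.96, lay below both (9.76 and 9.84).

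Within each class gene the differences of list means kept their direction for proliferation and mature neuron genes. Proliferation differed by 1.61 in BC74C (3 collagen-rich, 4 collagen-poor), 2.57 in RAB3A (2 and 1) and 2.74 in ZNF668 tumours (3 and 3). Mature neuron genes differed by -1.82, -0.74 and -2.14. The mesenchymal glioma mean differed by 1.15, 1.14 and 0.37, and the recruited macrophage mean by 1.47, 1.11 and 0.44, in the same order. Sprouting endothelial means differed by 1.04, 0.24 and 1.46 and hypoxia means by 0.71, 0.17 and 0.88. Other collagen means differed by 0.58, 0.18 and 0.30 and matrix glycoprotein means by 1.04, 0.43 and 0.63. In each of these lists the difference was smallest in RAB3A, where the lower collagen-rich tumour lay below the only collagen-poor one. Whether these differ between class genes was not tested.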

How the data were processed

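Total RNA of 24 tumours, extracted with Trizol and labelled with biotin per the labels' protocols, was measured on 1 single-colour Affymetrix array each. The deposited table holds 45141 probe sets as log2 values; that scale was read from the values, 2.40 to 13.85, with near-equal quartiles in all arrays. Partek version 6.6 is named in the submitters' processing notes; background correction and normalization are not given in the sources used here. After removal of 104 controls, 28898 probe sets had 1 gene symbol, 551 had several and 15588 had none. Symbols were updated by Entrez identifier to RefSeq (GRCm38.p6, 28689 matched). For each of 17097 genes the brightest probe set naming that gene alone was used; genes below the 30th percentile of probe set means (3.76) and the 3 score genes were left out, leaving 13216.

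Groups were fitted with limma 3.58.1 in R 4.3.3 (lmFit, eBayes with an intensity trend, class gene as covariate, 16 tumours), two-sided, with Benjamini-Hochberg adjustment over all genes tested and a threshold of 0.05. Precision is limited by having 16 arrays, with a median SE of 0.18. The fit was tested on simulated data in which 200 of 13216 genes differed between the groups, with noise drawn separately for each gene. It recovered 72% of changes of 1 and 91% of changes of 2 on the log2 scale, and 5.23% of its calls were false. Genes that move together, as in these tumours, were not simulated. Lists are described by counts and medians, with no set test. Named genes are the 10 largest and 10 smallest differences among calls (clone names passed over), the 2 highest and 2 lowest moderated t of each list, the other collagen genes, and Rab3a, Bcl7c and Zfp668; other list members are given as examples. The rule that forms the groups and all lists were chosen with earlier results of these data known. Highly similar arrays were checked: the closest pair correlated at 0.9893 and differed by up to 4.848, so all were kept as separate samples. Alternatives varied the covariates, the cuts of the score, the filter, normalization, probe set choice and the tumours left out. Plots were drawn in Python 3.11.15 (matplotlib 3.10.9).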

Additional observations from a re-analysis of the deposited data

Results flagged for a closer look

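In 21 of 273 groups of 8 tumours, the highest or lowest tumour stood apart from the other 7 by Dixon's criterion; chance alone marks about 1 group in 20. Of these, 8 are RAB3A replicate 6 below the other collagen-rich tumours in cell cycle genes: Bub1 at 5.79 against 7.55 to 9.05 in the others, Top2a at 7.40 against 9.18 to 10.66, Cep55 at 6.11 against 8.16 to 9.15, Cdk1 at 7.70 against 9.44 to 10.60, Ccna2 at 7.54 against 9.19 to 10.39, Tyms at 6.44 against 8.07 to 8.67, Mcm2 at 5.99 against 8.10 to 9.13 and the proliferation mean at 6.52 against 8.14 to 9.41.

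RAB3A replicate 5 stood apart in list means of the collagen-rich group: B cell at 9.15 against 3.54 to 4.21, matrix glycoprotein and proteoglycan at 6.68 against 7.58 to 8.14, radial glia and neural stem at 7.01 against 8.19 to 8.66 and Y-linked at 3.01 against 6.82 to 8.25. ZNF668 replicate 9 stood apart among the tumours between the groups, with Mcam at 7.67 against 5.31 to 6.40, endothelial at 7.81 against 5.88 to 6.602, brain endothelial barrier at 8.95 against 7.29 to 7.96 and radial glia and neural stem at 6.50 against 7.49 to 8.36. In the same group RAB3A replicate 3 had Dlg2 at 4.05 against 7.47 to 9.16 and RAB3A replicate 4 the ependymal and motile cilia mean at 5.80 against 4.49 to 5.09. Among collagen-poor tumours BC74C replicate 9 had Sst at 5.33 against 8.74 to 11.61, ZNF668 replicate 6 had Tgfb2 at 3.76 against 4.63 to 5.26 and BC74C replicate 8 the MHC class II mean at 7.80 against 5.995 to 6.78.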

How the results depend on the processing

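Limma called 1025 and 864 genes higher and lower in collagen-rich tumours. The counts were 447 and 143 without the class gene as a covariate, 347 and 105 with the title prefix as one, 674 and 809 within elw, 622 and 565 for the 6 highest against the 6 lowest tumours, 39 and 34 for 12 against 12 and 587 and 148 with the score as a continuous covariate over 24 tumours. They were 1841 and 1665 with array weights, 0 and 0 among tumours labelled ependymoma (1018 genes at an unadjusted p under 0.05 by limma, 4 against 4 tumours) and 0 and 0 with the neuron list mean as a covariate (1411 unadjusted). Leaving out 1 tumour gave 539 to 1374 higher and 266 to 1392 lower. Apart from the class gene, prefix, elw, group size, continuous, ependymoma, neuron and weight settings, the alternatives to all 16 tumours moved both counts by less than 1.5 times: another normalization or centring, the filter on low values, the choice of probe sets, the Y-linked covariate, the variance trend and, chosen after seeing the data, leaving out RAB3A replicate 5 and BC74C replicate 2 (1312 and 1112). Of 1021 values of the 57 called genes under these settings 699 kept direction and call, 316 kept only the direction and 6 reversed, all with the neuron list mean as a covariate: Sst at 0.16, Hpcal4 at 0.067, Vsnl1 at 0.095, Caln1 at 0.12, Hpca at 0.50 and Rab3a at 0.15. The causes were not tested. No paired analysis was possible because the labels carry no replicate numbers and the groups were cut by a score. Signal over background was not assessed, since only summarised values were used.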
